A study of Mus musculus with 4 samples.

Results

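miR-192, miR-194, miR-215, miR-122 and miR-375 are miRNAs of liver, gut, kidney and pancreatic islets, and they were followed here in cultured fibroblasts of the mouse joint lining. All rows whose name reduces to one of these 5 miRNAs were taken, which gave 5 rows (mmu-miR-192, mmu-miR-194, mmu-miR-215, mmu-miR-122 and mmu-miR-375) of the 590 miRNAs listed in any library. All 5 were listed in all 4 libraries, and all 5 passed the filter on low counts that left 442 miRNAs for testing. The group was chosen by values of these libraries, since the fold changes that placed miR-375, miR-122 and miR-215 among the largest increases in TghuTNF were known when it was put together. Its genotype differences are therefore given as a description, with no test of their own.

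Small RNA was sequenced from the synovial fibroblasts of TghuTNF mice, which carry a human TNF transgene and serve as a model of rheumatoid arthritis, and of wild-type (WT) littermates. There were 2 biological replicates of each genotype, all CBA/J * C57BL/6/J per the labels, from mice of 8 weeks. Per the labels' protocols the cells came from enzymatic digestion of hind joints and were kept for 4 passages in medium with 10% fetal bovine serum. The protocols give over 80 to 90% CD90.2-positive and under 1% Mac1-positive cells by flow cytometry. The sources used here do not give the promoter of the transgene or say whether mice were pooled.

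miR-192 and miR-215 are the classic epithelial miRNAs of gut and kidney. Each lies beside a copy of mir-194, and p53 is known to induce these paired loci in human tumour cells. miR-192 and miR-215 share a seed, the stretch that pairs with targets, and repress cell cycle genes. miR-122 makes up most of the miRNA of hepatocytes and supports cholesterol metabolism, and miR-375 is the leading miRNA of insulin-producing beta cells, where it restrains insulin secretion through myotrophin.

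The mature sequences show which counts can be told apart, with the seed (bases 2 to 8) in capitals, from the RefSeq table for GRCm38.p6:
miR-192: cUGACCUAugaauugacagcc
miR-215: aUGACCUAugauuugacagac
miR-194: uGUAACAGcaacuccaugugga
miR-192 and miR-215 carry the same seed, and no other mature miRNA of the table did. Counted from 1 at the 5′ end, they differ by C1A, A12U and C20A, with the base of miR-192 first. These 3 differences are more than the 2 mismatches that the authors' counting allowed, so a full-length error-free read of one would not be counted for the other. The nearest other miRNA to miR-194, miR-3100-3p, differs by 7 bases over the compared overlap. RefSeq sequences of the counted arms of miR-122 and miR-375 were not used here.

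The hairpins of the paired loci follow, with the counted mature miRNA in capitals, because they show that 1 of the 3 miRNAs comes from both places:
Mir194-1, chr1:185313319-185313385, plus strand: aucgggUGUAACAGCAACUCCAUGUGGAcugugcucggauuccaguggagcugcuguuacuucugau
Mir215, chr1:185313581-185313692, plus strand: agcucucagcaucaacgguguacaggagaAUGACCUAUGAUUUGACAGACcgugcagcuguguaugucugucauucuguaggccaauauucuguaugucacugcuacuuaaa
Mir194-2, chr19:6264643-6264728, plus strand: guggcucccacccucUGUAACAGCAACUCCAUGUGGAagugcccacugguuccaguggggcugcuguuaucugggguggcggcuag
Mir192, chr19:6264844-6264932, plus strand: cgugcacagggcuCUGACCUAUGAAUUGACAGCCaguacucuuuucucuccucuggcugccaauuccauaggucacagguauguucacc
The mature miR-194 is the same 22 bases in both hairpins, so its count is the sum of the 2 loci and cannot be divided between them. On chromosome 1, 195 bases separate Mir194-1 from Mir215. Both lie on the strand opposite to Iars2, in an intron of it, and within 2010103J01Rik, an antisense transcript that holds Mir194-1 in an intron and Mir215 in an exon (GENCODE M21, GRCm38). On chromosome 19, 115 bases separate Mir194-2 from Mir192, outside other annotated genes. Mir375 lies on chromosome 1 at 74900658 to 74900721 on the minus strand, also outside other genes.

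Library totals were 27362819 and 22959408 matches for TghuTNF and 16680860 and 26542371 for WT. A count of 0 would allow up to 3 counts, which is 0.110 to 0.180 counts per 1000000 matches (CPM). TghuTNF replicate 2 stood apart in its mismatches, with 11.67% of matches at 2 mismatches against 8.21% to 8.73% in the other 3 libraries. A list of mesenchymal miRNAs was read beside the synovial fibroblast label, with no threshold set, so it does not test the label. All 18 rows of that list were listed in every library, and they summed to 318300 and 341700 CPM of all matches in TghuTNF and 299500 and 326200 in WT.

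The 5 miRNAs stood at very different levels, and their order was the same in all 4 libraries. Levels are TMM-scaled CPM, and since 1 read covers a mature miRNA of 21 or 22 bases, no division by length was made. miR-192 was the most abundant and ranked 87th to 96th of the tested miRNAs in each library, while miR-375 ranked 353rd to 441st. No neighbours in this order (miR-192, miR-194, miR-215, miR-122, miR-375) overlapped within a genotype.

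**Figure D1:**
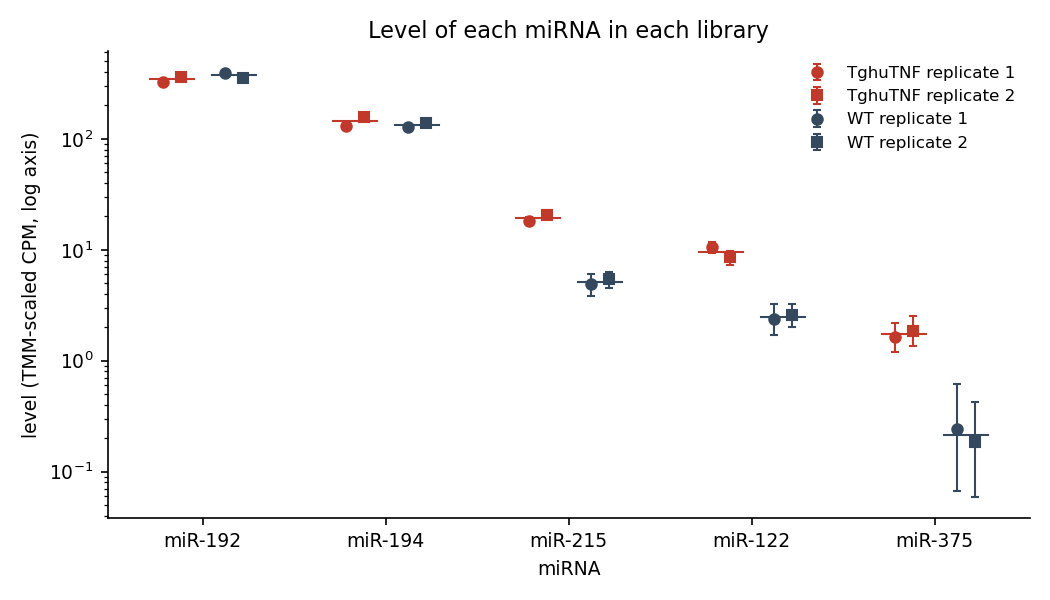
Level of each miRNA in TMM-scaled CPM on a log axis, with circles for replicate 1, squares for replicate 2, horizontal lines for the mean of a genotype and bars for exact 95% Poisson intervals (counting error only). For miR-215, miR-122 and miR-375 both TghuTNF libraries lie above both WT libraries, and for miR-192 and miR-194 the genotypes overlap.

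miR-192 had 323.8 and 361.1 CPM in the TghuTNF libraries, against 390.4 and 354.4 CPM in the WT libraries. The genotypes overlapped, since TghuTNF replicate 2 lay above WT replicate 2. Means were 342 ± 26.3 CPM in TghuTNF and 372 ± 25.5 CPM in WT (SD, n = 2 each), with a log2 fold change of -0.12 ± 0.19 (SE). In these bulk cultures, fewer cells with a miRNA and less of it per cell cannot be told apart.

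miR-194, the partner of both miR-192 and miR-215, had 130.1 and 157.2 CPM in the TghuTNF libraries, against 128.4 and 138.9 CPM in the WT libraries. Here too the genotypes overlapped. The log2 fold change was 0.10 ± 0.21 (SE), and its sign turned without TghuTNF replicate 2 (-0.07) and with upper quartile scaling (-0.0098).

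miR-215, which shares the seed of miR-192, had 18.3 and 20.6 CPM in the TghuTNF libraries, from 504 and 465 reads, against 4.87 and 5.40 CPM in the WT libraries, from 80 and 147 reads. Both TghuTNF libraries were higher than both WT libraries, and the replicates of each genotype lay close together. The means were 19.4 ± 1.69 CPM in TghuTNF and 5.13 ± 0.375 CPM in WT (SD, n = 2 each), a log2 fold change of 1.92 ± 0.27 (SE), or 3.78-fold.

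miR-122, the hepatocyte miRNA, had 10.6 and 8.53 CPM in the TghuTNF libraries, from 484 reads in all, against 2.37 and 2.57 CPM in the WT libraries, from 109 reads in all. The genotypes did not overlap. The means were 9.55 ± 1.45 CPM in TghuTNF and 2.47 ± 0.140 CPM in WT (SD, n = 2 each), with a log2 fold change of 1.94 ± 0.30 (SE), close to that of miR-215 although it is encoded elsewhere in the genome.

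miR-375, the islet miRNA, was the scarcest, with 45 and 42 reads in the TghuTNF libraries, against 4 and 5 reads in the WT libraries. That is 1.63 and 1.86 CPM in TghuTNF, with exact Poisson intervals of 1.19 to 2.18 and 1.34 to 2.52, against 0.243 and 0.184 CPM in WT, with intervals of 0.0663 to 0.623 and 0.0596 to 0.429. The genotypes did not overlap, and neither did these intervals, which cover counting error only. The fitted log2 fold change was 3.04 ± 0.51 (SE). Per match, the summed reads of TghuTNF were 8.30 times those of WT, with an exact 95% interval of 4.18 to 18.8 for counting error alone.

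In the fit over all 442 miRNAs, 3 of the 5 miRNAs (miR-215, miR-122 and miR-375) were higher in TghuTNF at a Benjamini-Hochberg adjusted p under 0.05 by edgeR's quasi-likelihood test, and 0 were lower. Over all tested miRNAs 4.75% were called higher, 8.6% lower and 13.3% in either direction. The same 3 had both TghuTNF libraries above both WT libraries, a pattern found for 30.8% of the 442. Since the members were picked with this comparison known, nothing is read from these shares. The call of miR-375 ended without WT replicate 2 (edgeR adjusted p = 0.058, log2 fold change 2.81 ± 1.03), a fit that leaves 1 WT library.

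**Figure D2:**
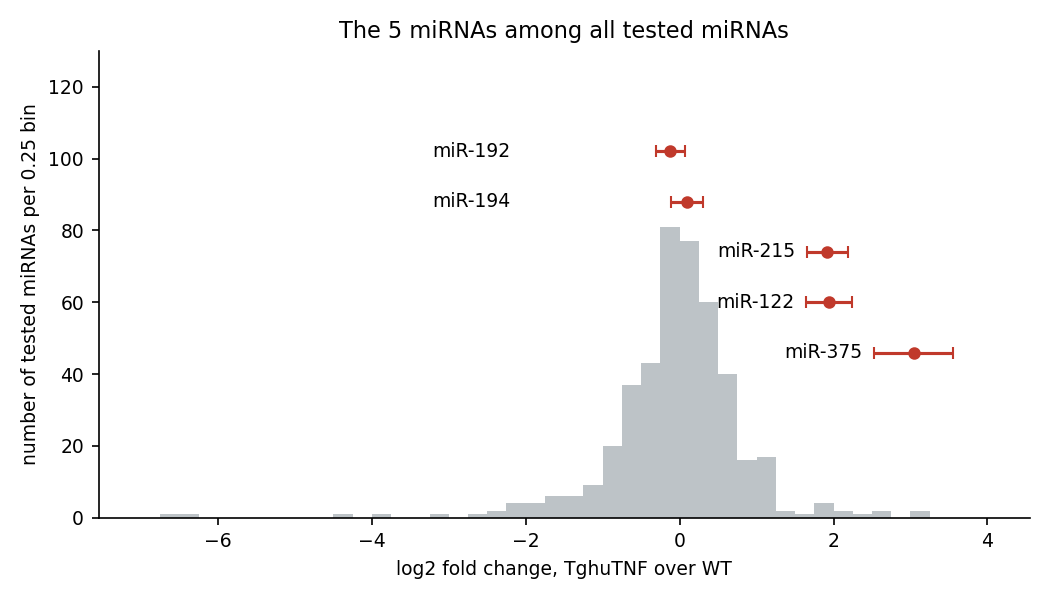
Log2 fold changes of TghuTNF over WT for the 5 miRNAs (red points, bars are SE, heights arbitrary) over the histogram of all 442 tested miRNAs (grey, vertical axis in miRNAs per bin). miR-192 and miR-194 lie at the middle of the distribution, and miR-375, miR-122 and miR-215 have the 2nd, 8th and 9th highest values.

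The ratio of miR-215 to miR-194 differed between the genotypes, with miR-194 counted from both loci. It therefore does not show whether the partners on chromosome 1 changed against each other. miR-215 amounted to 14.0% and 13.1% of the matches of miR-194 in the TghuTNF libraries, against 3.79% and 3.89% in the WT libraries. The log2 ratio averaged -2.88 in TghuTNF and -4.70 in WT, 1.82 higher in TghuTNF. Replicates of a genotype differed with an SD of 0.067 or less (n = 2 each), which understates the counting error. In WT, miR-215 rests on 80 and 147 reads, with exact 95% Poisson intervals of 3.86 to 6.06 and 4.56 to 6.35 CPM. With perfect matches only the difference was 1.83.

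The ratio of miR-192 to miR-194 differed less between genotypes. miR-192 had 2.49 and 2.30 times the matches of miR-194 in the TghuTNF libraries, against 3.04 and 2.55 times in the WT libraries. The mean log2 ratio was 1.26 ± 0.082 in TghuTNF and 1.48 ± 0.179 in WT (SD, n = 2 each). The 2 TghuTNF values lay below both WT values, and the difference of -0.22 was of the size of the spread between the WT libraries. With perfect matches only the difference was again -0.22, but the replicates lay closer together, at 0.32 ± 0.011 in TghuTNF and 0.54 ± 0.052 in WT (SD, n = 2 each). Since miR-194 comes from both loci, neither ratio isolates one locus.

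The sizes of the 2 loci bear on what the miR-194 count can show. miR-215 was 14.3 CPM higher in TghuTNF, whereas the replicates of miR-194 had an SD of 19.1 CPM in TghuTNF and 7.40 CPM in WT. A gain of miR-194 as large as that of miR-215 would lie within the spread of the TghuTNF replicates and was not detectable here. The seed shared by miR-192 and miR-215 was carried mainly by miR-192. miR-215 amounted to 5.64% and 5.72% of the matches of miR-192 in TghuTNF and 1.25% and 1.52% in WT.

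**Figure D3:**
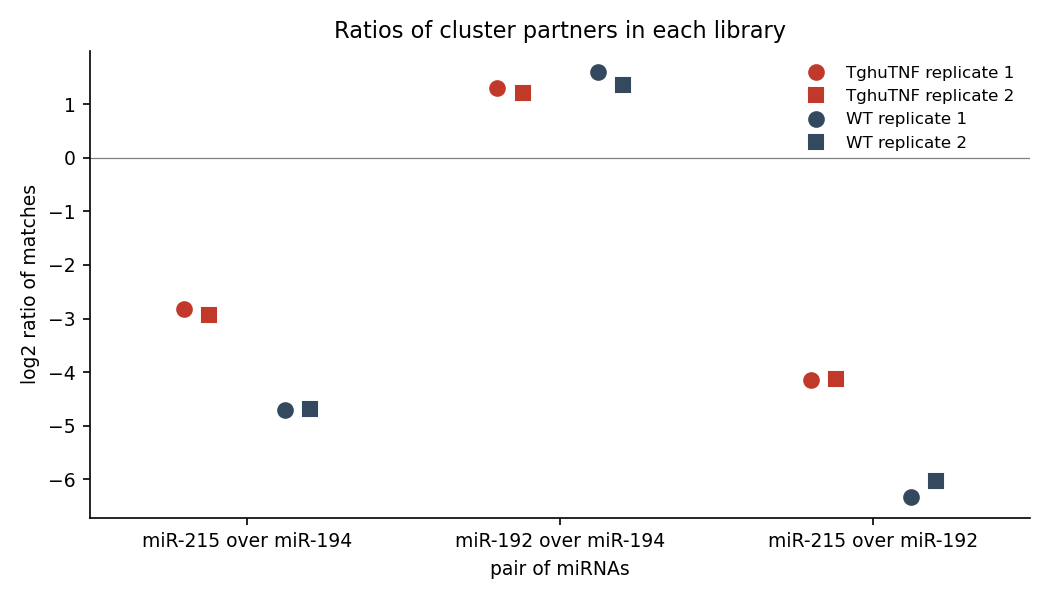
Log2 ratios of matches for 3 pairs of miRNAs in each library (circles replicate 1, squares replicate 2). The ratio of miR-215 to miR-194 is -2.83 and -2.93 in TghuTNF and -4.71 and -4.68 in WT, whereas the ratio of miR-192 to miR-194 lies between 1.20 and 1.60 in all 4 libraries.

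The deposited counts divide each miRNA's matches by mismatches to the listed sequence, a measure of how far the count rests on exact copies. miR-194 and miR-215 were nearly all exact outside 1 library. Perfect matches were 97.8% and 90.1% of miR-194 in TghuTNF and 96.9% and 96.7% in WT, and 96.6% and 88.2% of miR-215 in TghuTNF and 92.5% and 96.6% in WT. The low value of each was in TghuTNF replicate 2, the library that stood apart in its mismatches. There, 2-mismatch matches made up 4.91% of miR-194, 7.74% of miR-215, 7.03% of miR-192 and 9.52% of miR-375, each its highest share of any library. For miR-122 this share was 2.08% there, below the 2.56% of WT replicate 1, which is 1 read. Of 368 miRNAs with at least 20 matches in every library, 75.5% also had their largest 2-mismatch share in that library.

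miR-192 was of another kind, with about as many 1-mismatch as perfect matches. Perfect matches were 49.5% and 48.9% in the TghuTNF libraries and 47.5% and 53.7% in the WT libraries, and 1-mismatch matches 48.1% and 44.1% in TghuTNF and 49.2% and 43.9% in WT. The median 1-mismatch share over the 368 miRNAs was 15.7% to 17.3% per library, and 18.8% of them had a larger pooled share than miR-192. With perfect matches alone miR-192 had 1.26 and 1.24 times the matches of miR-194 in TghuTNF and 1.49 and 1.42 times in WT, so the distance between these 2 miRNAs depends on the mismatches counted. The order of the 5 miRNAs does not.

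miR-122 had a larger share of perfect matches in both TghuTNF libraries than in both WT libraries. Perfect matches were 83.6% (exact 95% binomial interval 78.8% to 87.6%) and 78.6% (72.2% to 84.2%) of miR-122 in the TghuTNF libraries, against 59.0% (42.1% to 74.4%) and 70.0% (57.9% to 80.4%) in the WT libraries. Of the 4 pairs of a TghuTNF and a WT library, only TghuTNF replicate 1 and WT replicate 1 had intervals that did not overlap. In perfect matches the mean level of miR-122 was 4.86 times as high in TghuTNF as in WT, and in 1-mismatch matches 2.01 times. The fit on perfect matches gave log2 fold changes of 2.27 ± 0.33 for miR-122, 1.89 ± 0.27 for miR-215 and 3.07 ± 0.48 for miR-375 (SE).

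**Figure D4:**
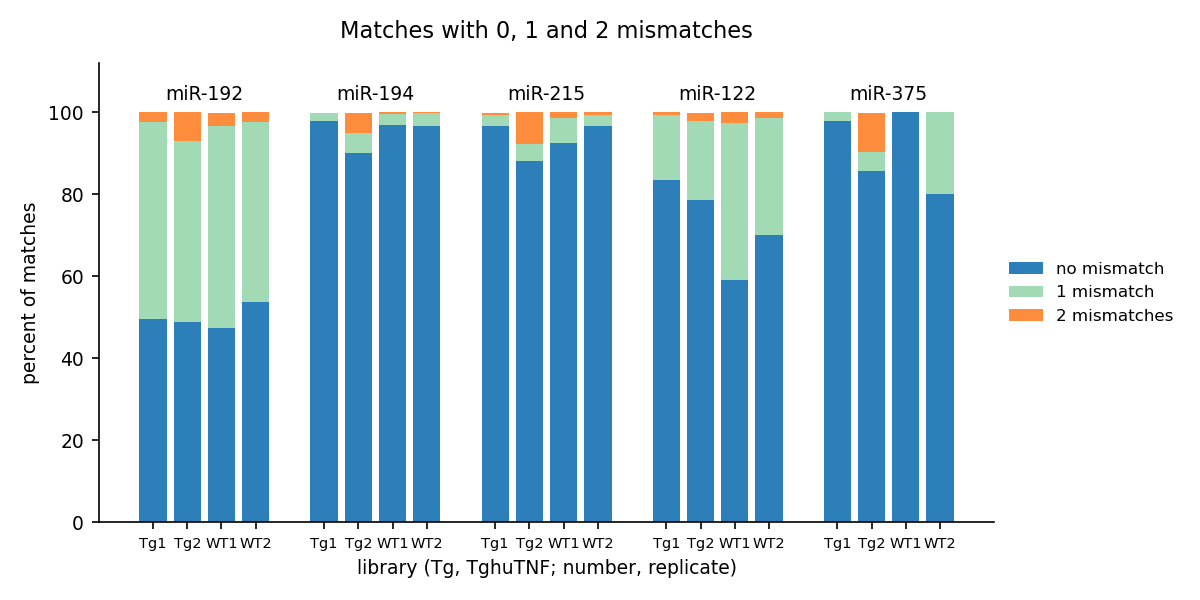
Share of matches with 0, 1 and 2 mismatches (percent, stacked bars) for each miRNA in the 2 TghuTNF libraries (Tg) and the 2 WT libraries. miR-192 has about as many 1-mismatch as perfect matches throughout, the 2-mismatch part of miR-194, miR-215 and miR-375 is largest in TghuTNF replicate 2, and the bars of miR-375 in WT rest on 4 and 5 reads.

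The pattern of each miRNA over the 4 libraries was set against 437 other miRNAs by the root mean square difference of log2 CPM, each centred on its own mean. Nearest to miR-215 was miR-222 at 0.042 (768 and 850 CPM in TghuTNF, 217 and 236 CPM in WT), followed by miR-582-5p at 0.235 and miR-221 at 0.25. miR-222 was also nearest to miR-122, at 0.169, followed by miR-31 (0.301) and miR-592 (0.341), the last with 1.63% perfect matches. Among the 5 miRNAs themselves, miR-215 and miR-122 were 0.173 apart, while miR-215 was 0.909 from miR-194 and 1.02 from miR-192.

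Nearest to miR-375 were miR-146a (0.329), miR-223 (0.341) and miR-495 (0.379), so its nearest neighbour was further away than that of each of the other 4. The WT values of miR-375 rest on 4 and 5 reads, and the part of counting error in this distance was not tested. The nearest to miR-192 were miR-148b (0.015), miR-143 (0.021) and miR-671-5p (0.033), and to miR-194 miR-154 (0.046), miR-425* (0.051) and miR-7a* (0.052). Perfect matches were 13.5% of miR-425*, 51.8% of miR-7a*, 56.1% of miR-495 and 58.5% of miR-143. They were 79.2% to 95.7% of the other neighbours of miR-375, miR-192 and miR-194. miR-192 and miR-194 were 0.148 apart. With 4 libraries these distances describe the libraries and test nothing. They largely restate the genotype differences, which were known when the members were chosen.

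Other miRNAs of liver, gut, kidney and pancreas were read from a list of 14 names with 20 rows, of which 16 were tested. In TghuTNF 1 was higher and 3 were lower, against 4.75% higher and 8.6% lower over all 442 tested miRNAs. The other 12 of the list did not pass, and the median log2 fold change was -0.27, against 0.006 over all tested miRNAs. The higher one was miR-184, with 7.10 and 6.48 CPM in TghuTNF, against 3.83 and 2.17 CPM in WT (edgeR adjusted p = 0.041). It was named after its values were seen, and its call ended without WT replicate 2 (log2 fold change 0.82, edgeR adjusted p = 0.43) and with upper quartile scaling (0.097). miR-378, hosted by the metabolic gene Ppargc1b, fell to 1255 and 1212 CPM in TghuTNF, against 3543 and 2764 CPM in WT (log2 fold change -1.35 ± 0.18, edgeR adjusted p = 0.00077), and its star arm miR-378* changed by -1.42 ± 0.39 (edgeR adjusted p = 0.034). The call of miR-378* ended without either WT library (edgeR adjusted p 0.28 and 0.30), with DESeq2 (0.083) and with perfect matches only (-0.82, edgeR adjusted p = 0.33). miR-483, hosted by Igf2 and abundant in fetal liver, changed by -2.61 ± 0.36 (edgeR adjusted p = 0.00082). miR-30a stood at -0.13 ± 0.15. miR-7a, taken like miR-375 as an islet marker, had a log2 fold change of -0.51, against the increase of miR-375. miR-7b stood at -0.54 and miR-7a* at 0.02, and none of these miR-7 rows passed. miR-802, a liver and kidney miRNA, had 2 and 5 reads in TghuTNF and 8 and 5 reads in WT, too few to be tested.

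Markers of other cell types were called in both directions between the genotypes, so their values stand here beside those of miR-215, miR-122 and miR-375. Over all 442 tested miRNAs, 4.75% were called higher and 8.6% lower, the shares to set beside the counts of each list. An unadjusted edgeR p under 0.05 was found for 128 of the 442, in either direction. Epithelial miRNAs summed to 232.1 and 271.4 CPM of all matches in TghuTNF and 239.4 and 186.0 in WT. Of 8 tested, 0 were higher (0 by DESeq2, 1 at an unadjusted p under 0.05 by edgeR), 1 was lower (miR-203, log2 fold change -1.43 ± 0.24, edgeR adjusted p = 0.0025), and the median was 0.45. The gut epithelial miR-200a had 6 and 6 reads in TghuTNF and 0 and 5 in WT, and miR-429 had 1 and 2 reads in TghuTNF and 1 and 0 in WT. miR-182 (0.68 ± 0.28), miR-183 (0.55 ± 0.25) and miR-96 (0.41 ± 0.33) did not pass.

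Blood cell miRNAs summed to 48.5 and 33.5 CPM of all matches in TghuTNF and 43.2 and 30.9 in WT, with ranges that overlap. This sum mixes directions, since miR-486 had 19.2 and 12.5 TMM-scaled CPM in TghuTNF, against 27.7 and 23.6 in WT. By contrast, miR-223, miR-142-3p and miR-142-5p had positive log2 fold changes. Of 4 tested, 1 was higher: miR-223, a neutrophil and macrophage miRNA, had 3.26 and 2.40 CPM in TghuTNF, against 0.609 and 0.294 CPM in WT (log2 fold change 2.72 ± 0.47, edgeR adjusted p = 0.0026; 2.21 and 0.051 without WT replicate 2). miR-486 (-0.69 ± 0.28), miR-142-3p (1.08 ± 0.38) and miR-142-5p (1.18 ± 0.55) did not pass, and miR-144 had 0 and 0 reads in TghuTNF and 1 and 2 reads in WT. miR-451 had 10 and 5 reads in TghuTNF and 2 and 7 reads in WT.

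Neural miRNAs summed to 474.3 and 443.9 CPM of all matches in TghuTNF and 324.9 and 291.8 in WT. Of 6 tested, 2 were higher (miR-129-3p, 1.19 ± 0.27, edgeR adjusted p = 0.014, and miR-138, 1.12 ± 0.29, adjusted p = 0.032), and the neuronal miR-124 had 3 and 1 reads in TghuTNF and 0 and 0 reads in WT. Both calls ended without either WT library (edgeR adjusted p 0.051 to 0.29). That of miR-138 also ended with upper quartile scaling (0.055) and perfect matches only (0.071). The other 4 tested neural miRNAs did not pass and went in both directions. miR-129-5p (0.67 ± 0.20) and miR-128 (0.36 ± 0.24) had positive log2 fold changes, and miR-9 (-0.28) and miR-9* (-0.13) negative ones. The scarce miR-219 had 3 and 4 reads in TghuTNF and 3 and 6 reads in WT. Muscle miRNAs summed to 2074 and 1750 CPM of all matches in TghuTNF and 2390 and 3086 in WT. Of 5 tested, 0 were called in either direction by edgeR, DESeq2 or limma-voom. All 5 had an unadjusted edgeR p under 0.05, as had 128 of all 442 tested miRNAs. The abundant muscle miRNAs, miR-206 (-0.53 ± 0.18) and miR-1 (-0.43 ± 0.19), had negative log2 fold changes. So had miR-133a (-0.98 ± 0.38) and miR-133b (-0.97 ± 0.38), whereas only miR-499 had a positive one (1.20). miR-133a and miR-133b had nearly the same levels in every library, for example 2.057 and 2.020 CPM in WT replicate 2. Only 41.1% of the matches of miR-133a and 15.2% of those of miR-133b were perfect. Whether they share reads was not tested, so the 5 muscle rows may not be 5 separate measurements. The median of the list was -0.53. Both endothelial arms were lower in level, miR-126-3p past the test (-0.79 ± 0.22, edgeR adjusted p = 0.035) and miR-126-5p not (-0.77 ± 0.26). The call of miR-126-3p ended without WT replicate 1 (edgeR adjusted p = 0.30), without WT replicate 2 (0.10) and when a mean of 10 CPM was required (0.058).

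Mesenchymal miRNAs had 3 higher and 1 lower of 18 tested, against 4.75% higher and 8.6% lower over all 442. Their median log2 fold change was 0.18. The higher ones were miR-22 (1.02 ± 0.19, edgeR adjusted p = 0.0039), miR-140* (0.81 ± 0.18, adjusted p = 0.012) and the cartilage miRNA miR-140 (0.91 ± 0.23, adjusted p = 0.024), while miR-21 stood at 0.12 ± 0.14. Without TghuTNF replicate 2 the calls of miR-140* (0.10) and miR-140 (0.14) ended by edgeR's adjusted p, and that of miR-140 also with upper quartile scaling (0.055) and a mean CPM of at least 10 (0.072). The lower one was miR-214 (-0.93 ± 0.26, edgeR adjusted p = 0.037), named after its values were seen. Its call ended without WT replicate 1 (-0.53, edgeR adjusted p = 0.45) and with 3 other settings (adjusted p 0.054 to 0.10). The part of other cell types in the levels of miR-215, miR-122 and miR-375 was not tested.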

How the data were processed

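The deposited files hold raw counts of reads per mature miRNA, with their parts at 0, 1 and 2 mismatches, which the authors made with mimap version 3d and did not normalise, per the file headers. The headers give 37-base reads, 707 tested mouse miRNAs, at most 2 mismatches and a hash of 9. No source used here states the miRBase release, adaptor trimming or how reads matching several miRNAs were treated.

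filterByExpr kept 442 miRNAs, and TMM gave the scaling factors. The genotype difference was fitted in edgeR 4.0.16 (R 4.3.3) by its quasi-likelihood test, with no other term, over the 4 libraries. Tests were two-sided and Benjamini-Hochberg adjusted over all 442, and calls are at 0.05. Errors of CPM are SD with n = 2. In edgeR fits the SE of a log2 fold change is its size divided by the square root of the test's F value. It is thus taken from the test and not from the replicates of that miRNA alone. p-values set the genotype difference against the variation between these cultures only, which the fit estimates partly over all tested miRNAs together. Ratios use a pseudocount of 0.5 counts. There are no molecular identifiers, so intervals cover counting error only. The test was checked on simulated counts. Alternatives were DESeq2 1.42.0, limma-voom (limma 3.58.1), other scalings and filters, leaving out each library, a replicate block and perfect matches only.

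The members and lists were chosen with earlier results of these data known. All 5 members are named, with the 3 nearest patterns of each. Of each list up to 4 miRNAs are named, called ones first (up to 3, in order of p), then by abundance. miR-184, miR-214, miR-499, miR-7a, miR-7b, miR-9 and miR-9* were added to these after their values were seen. So were the scarce miR-802, miR-200a, miR-429, miR-144, miR-451, miR-124 and miR-219. Sequence comparison used 1679 mature names of RefSeq, offsets of up to 3 bases and an overlap of at least 15.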

Additional observations from a re-analysis of the deposited data

How the results depend on the processing

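Over the alternatives run, log2 fold changes ranged from 1.80 to 1.99 for miR-215, 1.70 to 2.27 for miR-122, 2.81 to 3.21 for miR-375, -0.24 to -0.05 for miR-192 and -0.07 to 0.16 for miR-194. miR-194 turned sign with upper quartile factors (-0.0098, where the median of all miRNAs was -0.102 against 0.006) and without TghuTNF replicate 2 (-0.07). The call of miR-375 ended without WT replicate 2. With a mean CPM of at least 10, only 3 members were tested and 1 was called, since miR-122 and miR-375 fall under that minimum. Leaving out each library gave 2 to 3 called members. Over all miRNAs, 59 were called; 93 were with no filter, 20 with a mean CPM of at least 10 and 49 to 153 when a library was left out, the highest without TghuTNF replicate 1. These fits leave 1 library in a genotype, which is assumed to vary like the others. The cause of these shifts was not tested.

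The libraries share only replicate numbers, so they were not treated as paired: the deviations of same-numbered libraries correlated with r = -0.108 over 442 miRNAs. With a replicate block 87 miRNAs were called and the same 3 members, and with the crossed pairing, chosen after seeing the data, 55. Of 84 list medians under alternatives, 7 moved by more than the spread between replicates: the mesenchymal median fell to 0.0047 without TghuTNF replicate 2, against 0.18 with all libraries. Depth limits miR-375 in WT, at 4 and 5 reads.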
